A study of Homo sapiens with 8 samples.

Results

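Interferon-stimulated effector genes are switched on by interferons and by pattern-recognition signals such as lipopolysaccharide (LPS, a bacterial outer-membrane component), and many of their products block viruses or prepare macrophages for infection. In the classical route interferon binds its receptor, receptor-bound kinases activate transcription factors, and these bind interferon-stimulated response elements in promoters. The genes described here are 40 named effectors outside the IFIT, OAS, GBP, APOBEC3, ISG15 and PARP groups, among them MX, TRIM, SP100-family and helicase genes. They were picked by name, by matching gene symbols to the Ensembl identifiers of a table of 30233 genes, and 39 of them were found in it. RTP4 was not analysed here.

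RNA-seq covered 8 libraries, all from wild-type THP-1, a human monocytic leukaemia line. All cells received PMA, a phorbol ester given to make them macrophage-like, at 100 ng/ml for 24 h. A further 24 h without PMA followed. The share of cells that responded to PMA cannot be read from bulk RNA. In 4 libraries the cells had received 100 ng/mL LPS and, at the same time, 5 mM 3-HPA (3-hydroxypropionic acid, a small organic acid). The other 4 had received 100 ng/mL LPS alone. The series description speaks of 3-HPA pretreatment where the protocol gives joint addition, and the sources used here do not give the length of the LPS exposure. Every cell was stimulated with LPS, so each difference lies between LPS-treated states. Whether replicates were separate cultures is not labelled, so p-values measure library-to-library spread alone, and that spread may be technical.

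Values are FPKM, reads scaled to gene length and library total. The whole reads behind them were recovered, and came to 35647756 to 40362671 per LPS + 3-HPA library and 37509810 to 41859879 per LPS library. The 38 effector genes tested held from 170 reads (STAP1) to 69637 reads (RNF213) in a library. Of 10 macrophage markers 9 averaged over 1 FPKM, with CD68 at 0.0259 to 0.126 FPKM as the exception. The summed level of the 10 was 1808 to 1878 FPKM with 3-HPA and 1475 to 1515 FPKM with LPS alone. Not all moved with the sum. MSR1 was lower with 3-HPA (27.5 to 29.6 FPKM, against 34.0 to 37.1 FPKM with LPS alone). So was FCGR1A (19.2 to 20.7 FPKM, against 21.4 to 24.0 FPKM). Endothelial markers summed to 7.37 to 8.68 FPKM with 3-HPA and 3.76 to 4.34 FPKM with LPS alone, nearly all of it PECAM1, and fibroblast markers to 4.10 to 4.58 FPKM with 3-HPA and 2.18 to 2.61 FPKM with LPS alone, mostly COL1A1. Mitochondrially encoded genes made up 4.37 to 4.58% of FPKM with 3-HPA, against 2.94 to 3.08% with LPS alone. The part of these differences in the results below was not tested.

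The comparison asked how 3-HPA changes LPS-stimulated, PMA-treated THP-1 cells. With 3-HPA, 36 of the 38 effector genes tested fell, 1 rose (IFI30, a lysosomal thiol reductase) and 1 did not pass (IFI27). The largest falls were in the adaptor genes HSH2D and STAP1, the retrovirus restriction gene TRIM5 and the GTPase gene MX2, and the smallest in LAP3, RNF213 and TRIM25. Across all 12499 genes tested, 28.0% were lower, 15.7% were higher and 43.7% passed in either direction, at a limma adjusted p of 0.05. The median log2 fold change, LPS + 3-HPA minus LPS on the log2(FPKM + 1) scale, was -0.57 over the effector genes and -0.05 over all genes tested. The median ratio of mean FPKM was 0.663.

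Falls of at least 0.5 on the log2 scale that passed the test numbered 19 of 38, against 3.33% of all genes, and falls of at least 1 numbered 4, against 0.360%. The 4 values of one group lay wholly apart from the 4 of the other in 37 of 38 effector genes, against 42.2% of all genes, and in 36 of these the 3-HPA values were the lower ones, against 26.9% of all genes. Among the 100 genes with the lowest fold changes were 9 of the effector genes. Every tested one was at 2.42 FPKM or more in every library, so none passed the filter on low values through 1 group only. In bulk RNA, fewer expressing cells and less RNA per cell cannot be told apart. How many of all changed genes were higher depended on library scaling, with 36.01% as deposited, 50.7% after TMM scaling and 46.4% after quantile normalisation. The effector genes gave 35 or 36 lower and 1 higher under each of these.

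**Figure D1:**
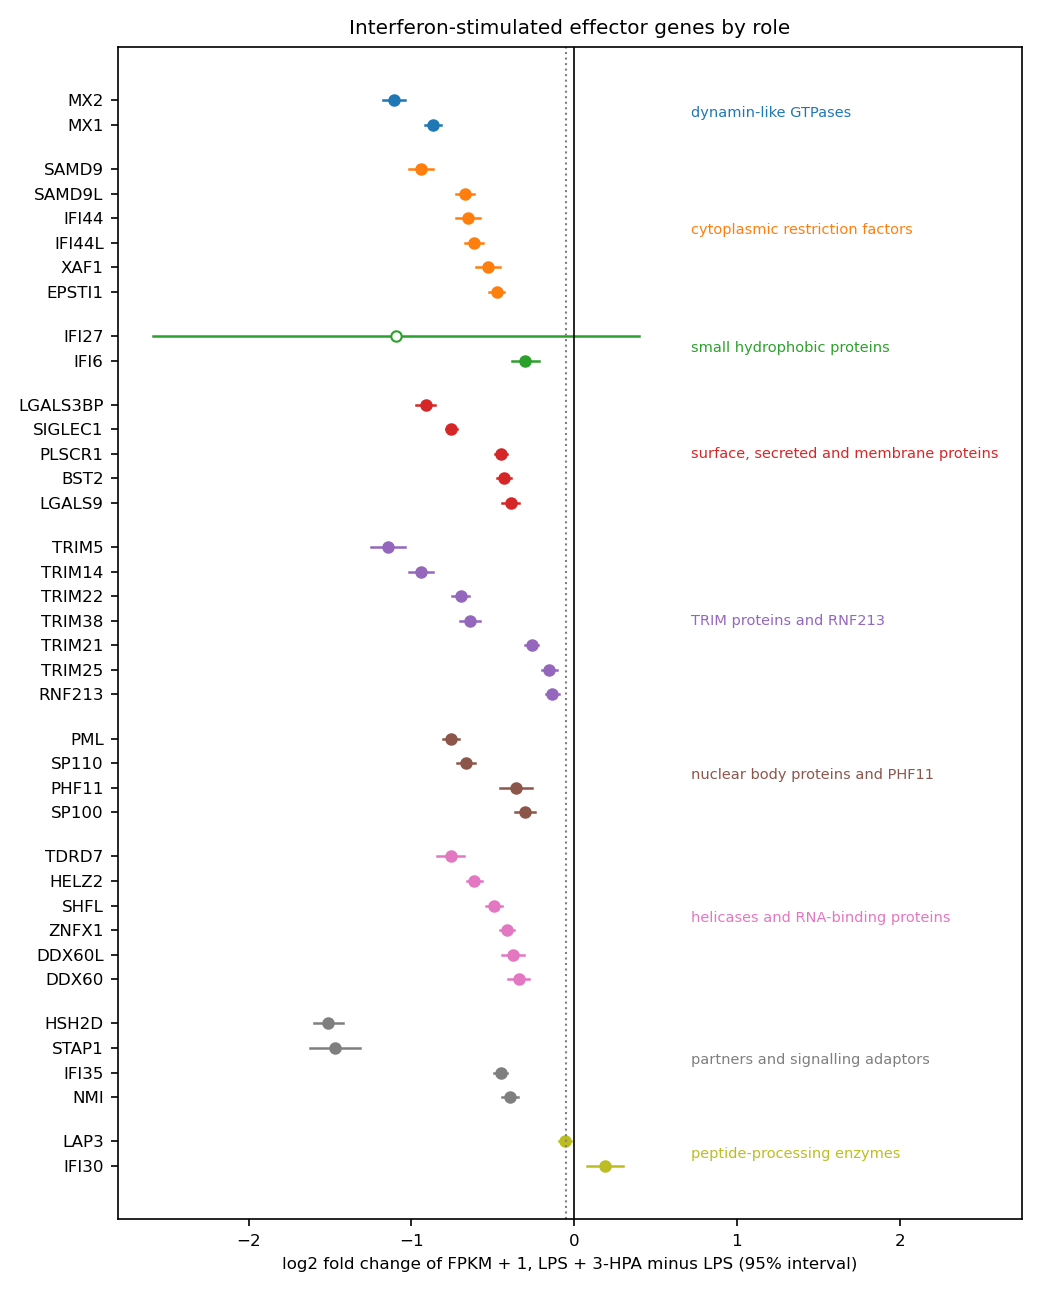
Log2 fold change of FPKM + 1, LPS + 3-HPA minus LPS, for the 38 tested effector genes grouped by role. Points are limma estimates and bars their 95% intervals (n = 4 libraries per group), the open point did not pass, and the dotted line is the median of all genes tested (-0.05). All filled points but IFI30 (0.19) lie left of 0, and the interval of IFI27 runs from -2.59 to 0.40.

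Summed over the 39 genes in the table, the level was 3239, 3217, 3115 and 3206 FPKM in LPS + 3-HPA libraries 1 to 4 and 4421, 4220, 4438 and 4252 FPKM in LPS libraries 1 to 4. This was 1.26 to 1.30% of all FPKM with 3-HPA and 1.75 to 1.84% with LPS alone. IFI6 alone averaged 1215 ± 25.7 FPKM with 3-HPA and 1497 ± 81.8 FPKM with LPS (SD, n = 4 each), more than any other of the genes. BST2, IFI35, IFI44, LAP3 and PLSCR1 followed at 141 to 262 FPKM with 3-HPA and 192 to 353 FPKM with LPS. With 3-HPA the 5 lowest of the tested genes were STAP1, TRIM5, IFI27, HSH2D and IFI30, at means of 2.99 to 6.02 FPKM, and with LPS alone the 3 lowest were IFI30, STAP1 and TRIM5, at 5.15 to 10.0 FPKM. FPKM compares genes per length, and the length depends on the gene model. The length recovered from the values was 17984 bases for MX1, where GENCODE 29 has 8616, and 17337 for DDX60, where it has 6750, so levels of such genes rank lower than shorter models would place them.

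**Figure D2:**
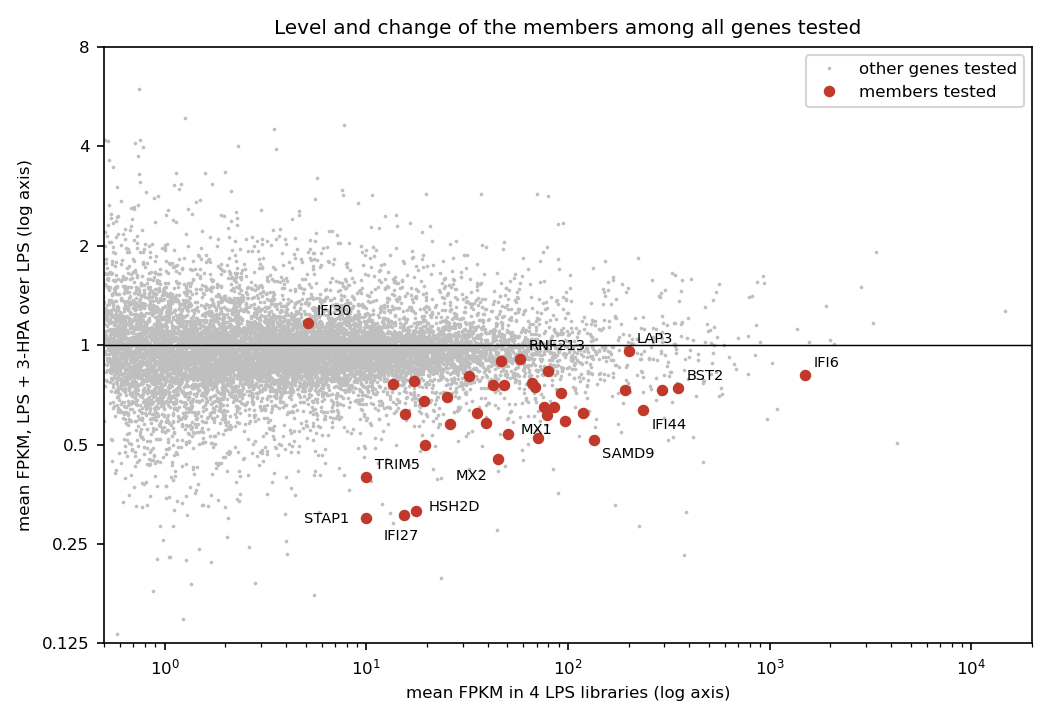
Mean FPKM in the 4 LPS libraries (log axis) against the ratio of mean FPKM, LPS + 3-HPA over LPS (log axis), for the tested genes that lie within the axes (grey) and the 38 effector genes (red). Red points lie below 1 apart from IFI30 (1.17), from STAP1 at 0.299 up to LAP3 at 0.961, at low and at high levels.

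The dynamin-like GTPases MX1 and MX2, which assemble around incoming viral ribonucleoproteins and capsids, both fell. MX2 (ENSG00000183486; GRCh38 chromosome 21, 41361943 to 41409390) had 21.3, 20.4, 19.7 and 19.7 FPKM with 3-HPA, against 46.4, 43.9, 44.9 and 44.0 FPKM with LPS alone. The groups were far apart (-1.11 on the log2 scale, SE 0.030, limma adjusted p = 1.86e-08). MX1 (ENSG00000157601; chromosome 21, 41420304 to 41459214), its neighbour, had 28.2, 27.1, 26.7 and 27.4 FPKM with 3-HPA, against 51.86, 49.97, 50.62 and 49.97 FPKM with LPS alone. No 3-HPA library reached the lowest LPS library, and the change was -0.86 on the log2 scale (SE 0.022, limma adjusted p = 1.27e-08).

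All 6 cytoplasmic restriction factors fell, with a median log2 fold change of -0.63. SAMD9 (ENSG00000205413; chromosome 7, 93099513 to 93118023), a poxvirus restriction factor, led them with 70.6, 70.1, 66.2 and 70.4 FPKM under 3-HPA, against 141.2, 134.1, 128.7 and 131.7 FPKM under LPS. Its level was thus 1.93-fold lower (log2 fold change -0.94, SE 0.032, limma adjusted p = 5.03e-08). The adjoining SAMD9L, its paralogue, had 75.3, 76.5, 72.0 and 74.3 FPKM with 3-HPA, against 123.9, 118.5, 117.3 and 117.6 FPKM with LPS (-0.67, limma adjusted p = 7.27e-08). By FPKM, SAMD9L was the higher of this pair with 3-HPA and SAMD9 with LPS alone, but that order depends on gene length. The length recovered for SAMD9L was 7992 bases, where GENCODE 29 has 7135, and 6855 in both for SAMD9. In whole reads SAMD9L was the higher in every library of both conditions. IFI44, a cytoplasmic protein linked to growth arrest, had 150.4, 156.7, 140.1 and 155.0 FPKM with 3-HPA and 240.1, 235.9, 232.6 and 237.6 FPKM with LPS (-0.65, limma adjusted p = 5.04e-07). Its neighbour IFI44L had 54.8, 56.2, 53.2 and 56.3 FPKM with 3-HPA and 87.3, 84.7, 84.6 and 83.1 FPKM with LPS (-0.62, limma adjusted p = 8.91e-08). The genes of XAF1, a partner of the apoptosis inhibitor XIAP, and of EPSTI1, first found in epithelial-stromal co-culture, fell by 0.53 and 0.48 on the log2 scale. A transcript on the opposite strand shares 38.3% of the exon bases of XAF1, and opposite-strand transcripts share 18.4% of those of SP110 and 16.9% of those of SHFL. Strand use in the counting is not stated, so reads there are uncertain.

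**Figure D3:**
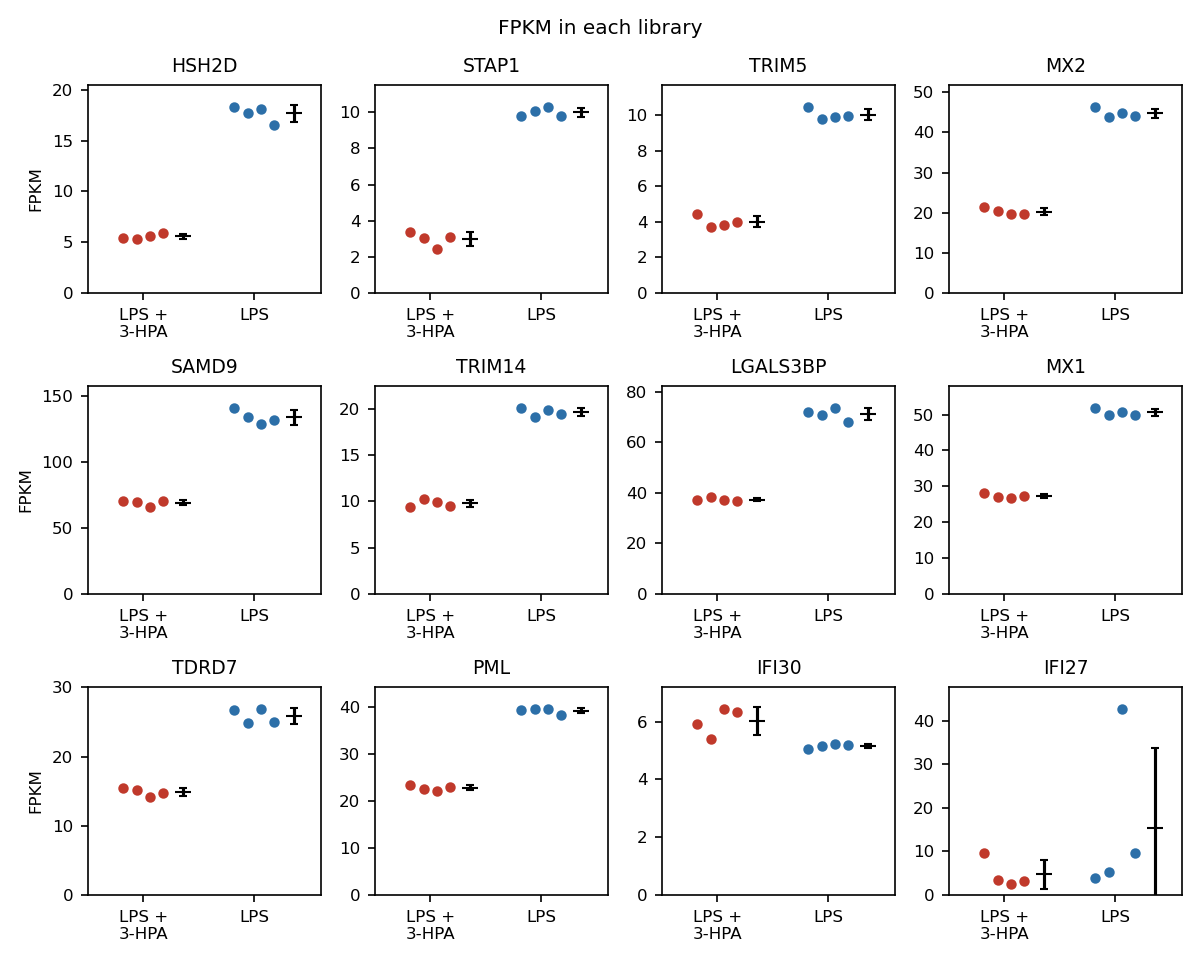
FPKM in each library for the 10 effector genes with the largest called change, then IFI30 and IFI27, with LPS + 3-HPA in red on the left and LPS in blue on the right. Dashes and bars are the mean ± SD of 4 libraries, and the lower bar of IFI27 under LPS runs below 0 and is cut at the axis. The groups stand apart in the first 11 panels, and in the IFI27 panel they overlap with a single LPS library at 42.7 FPKM.

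Among genes for surface, secreted and membrane proteins all 5 tested fell. LGALS3BP (ENSG00000108679; chromosome 17, 78971238 to 78980109), a secreted glycoprotein that binds galectins, had 37.1, 38.4, 37.3 and 36.7 FPKM with 3-HPA, against 72.1, 70.7, 73.6 and 68.1 FPKM with LPS alone. The level was 1.90-fold lower, with no overlap (log2 fold change -0.91, SE 0.026, limma adjusted p = 2.13e-08). SIGLEC1, the sialic-acid receptor that marks interferon-exposed macrophages, averaged 56.7 ± 0.686 FPKM with 3-HPA and 96.3 ± 0.788 FPKM with LPS (SD, n = 4 each; -0.75). Smaller falls were seen in PLSCR1, a phospholipid scramblase with antiviral activity (-0.45), in BST2, the tetherin that holds budding virions at the membrane (-0.43), and in LGALS9, which encodes galectin-9 (-0.39). LGALS9 has near-identical copies in the genome, so its reads are uncertain.

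TRIM genes encode ubiquitin ligases and related proteins with antiviral or signalling roles, and the 6 measured, together with the giant ligase gene RNF213, all fell, over a wide range. TRIM5 (ENSG00000132256; chromosome 11, 5663557 to 5938619), whose product attacks retroviral capsids, had 4.43, 3.73, 3.83 and 3.98 FPKM with 3-HPA, against 10.5, 9.80, 9.90 and 9.93 FPKM with LPS alone. It was 2.51-fold lower (log2 fold change -1.14, SE 0.046, limma adjusted p = 1.33e-07). TRIM14 (ENSG00000106785; chromosome 9, 98069275 to 98119212), an adaptor of antiviral signalling at mitochondria, had 9.36, 10.3, 9.98 and 9.47 FPKM with 3-HPA, against 20.1, 19.1, 19.9 and 19.4 FPKM with LPS. The groups did not overlap (-0.94, SE 0.032, limma adjusted p = 5.54e-08). TRIM22, which lies within the span of TRIM5 on the other strand and restricts retroviruses and influenza virus, had 48.9, 48.3, 46.4 and 49.4 FPKM with 3-HPA and 81.1, 78.7, 77.8 and 77.7 FPKM with LPS (-0.70, limma adjusted p = 5.00e-08). TRIM38, a regulator of inflammatory signalling, fell by 0.64 and TRIM21, a cytosolic antibody receptor, by 0.26. The changes of TRIM25, a ligase that acts on the RNA sensor RIG-I (-0.15, 95% interval -0.20 to -0.10), and of RNF213 (-0.13, -0.18 to -0.09) passed the test but were small.

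Genes for proteins of nuclear bodies, grouped here with the gene of the PHD-finger protein PHF11, fell in 4 of 4 tested cases of this group. PML (ENSG00000140464; chromosome 15, 73994673 to 74047812), which organises the bodies named after it, had 23.4, 22.6, 22.1 and 23.0 FPKM with 3-HPA, against 39.3, 39.5, 39.5 and 38.3 FPKM with LPS alone. The ratio of means was 0.581, with the groups apart (log2 fold change -0.76, SE 0.022, limma adjusted p = 2.13e-08). SP110 had 23.0, 21.9, 21.8 and 21.7 FPKM with 3-HPA and 36.2, 35.4, 34.6 and 35.8 FPKM with LPS (-0.66, limma adjusted p = 7.90e-08). SP100, which encodes a core constituent of these bodies and a relative of SP110, had 25.3, 26.6, 25.8 and 26.5 FPKM with 3-HPA and 32.3, 32.3, 31.1 and 33.6 FPKM with LPS (-0.30, limma adjusted p = 2.25e-05). SP140, a chromatin reader of the same family, was at 0.178 to 0.404 FPKM with 3-HPA (40 to 84 reads) and 0.310 to 0.475 FPKM with LPS (65 to 102 reads). It lay under the filter and was left out of the tested genes. PHF11 fell by 0.36.

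Genes of helicases and RNA-binding proteins fell in all 6 cases, by 0.34 to 0.76 on the log2 scale. TDRD7 (ENSG00000196116; chromosome 9, 97411950 to 97496125), a Tudor-domain protein of RNA granules, had 15.4, 15.2, 14.2 and 14.8 FPKM with 3-HPA, against 26.74, 24.86, 26.91 and 24.99 FPKM with LPS alone. Its fall was the largest of the 6 (log2 fold change -0.76, SE 0.036, limma adjusted p = 3.32e-07). HELZ2, a helicase and nuclear-receptor coactivator, fell by 0.61, SHFL, an inhibitor of ribosomal frameshifting, by 0.49, and ZNFX1, a helicase that senses viral RNA, by 0.41. The helicase gene DDX60 had 13.4, 13.9, 12.8 and 13.8 FPKM with 3-HPA and 17.6, 17.1, 17.5 and 17.1 FPKM with LPS (-0.34, limma adjusted p = 1.58e-05). Its paralogue DDX60L had 52.5, 50.8, 48.8 and 52.2 FPKM with 3-HPA and 68.1, 68.5, 65.0 and 64.6 FPKM with LPS (-0.38, limma adjusted p = 8.69e-06). Reads of DDX60 and DDX60L may be split between similar sequences.

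The partners and adaptors held the largest called change of the 38 genes. HSH2D (ENSG00000196684; chromosome 19, 16134028 to 16158575), an SH2-domain adaptor known from lymphocytes, had 5.45, 5.29, 5.63 and 5.87 FPKM with 3-HPA, against 18.3, 17.7, 18.1 and 16.5 FPKM with LPS alone. The lowest LPS library was well above the highest 3-HPA library, and the level was 3.18-fold lower (log2 fold change -1.51, SE 0.040, limma adjusted p = 1.64e-08). STAP1 (ENSG00000035720; chromosome 4, 67558728 to 67607337), an adaptor that binds tyrosine-phosphorylated proteins, had 3.37, 3.02, 2.44 and 3.11 FPKM with 3-HPA (170 to 247 reads), against 9.81, 10.1, 10.3 and 9.78 FPKM with LPS (718 to 812 reads). By the ratio of means it fell further than HSH2D, 3.35-fold, while the log2(FPKM + 1) scale placed it just behind (-1.47, SE 0.067, limma adjusted p = 2.66e-07), since that scale understates the change of low genes. NMI and IFI35 encode partners that bind each other. NMI had 36.7, 37.6, 35.8 and 36.3 FPKM with 3-HPA and 47.1, 49.6, 48.5 and 48.1 FPKM with LPS (-0.39, limma adjusted p = 1.00e-06). IFI35 had 212, 215, 216 and 217 FPKM with 3-HPA and 297, 290.2, 302 and 288 FPKM with LPS (-0.45, limma adjusted p = 9.08e-08). Both fell by similar amounts.

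Of the genes of peptide-processing enzymes, 1 was called lower and 1 higher, both by small amounts. LAP3, a leucine aminopeptidase, averaged 191.9 ± 3.73 FPKM with 3-HPA and 199.7 ± 1.39 FPKM with LPS (SD, n = 4 each; log2 fold change -0.06, limma adjusted p = 0.0192). The change of LAP3 lay close to the median of all genes tested (-0.05). Its call ended after TMM scaling, where the sign turned (0.0042, limma adjusted p = 0.873), without a mean-variance trend and without LPS library 1. IFI30 (ENSG00000216490; chromosome 19, 18173162 to 18178117), which encodes GILT, the thiol reductase of antigen processing, had 5.92, 5.40, 6.44 and 6.34 FPKM with 3-HPA, against 5.06, 5.15, 5.22 and 5.19 FPKM with LPS alone. It was the 1 gene of the set to rise (0.19, SE 0.048, limma adjusted p = 0.0122), with every 3-HPA library above every LPS library. In GENCODE 29 another protein-coding gene shares 40.2% of its exon bases, which leaves its level and its rise uncertain.

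The small hydrophobic proteins IFI6 and IFI27 belong to one family and lie on different chromosomes. IFI6, an inhibitor of flavivirus replication and of apoptosis, had 1242, 1223, 1180.5 and 1213 FPKM with 3-HPA and 1551, 1400.4, 1577 and 1458 FPKM with LPS alone (log2 fold change -0.30, limma adjusted p = 0.000172). The groups did not overlap. IFI27 (ENSG00000165949; chromosome 14, 94104836 to 94116698), used in blood as a marker of interferon exposure, had 9.692, 3.498, 2.423 and 3.222 FPKM in LPS + 3-HPA libraries 1 to 4 and 3.96, 5.20, 42.7 and 9.72 FPKM in LPS libraries 1 to 4. These rest on 1509, 585, 358 and 498 reads with 3-HPA and 616, 889, 6807 and 1686 reads with LPS, so counting error is small beside the spread. The groups overlapped, and the change of -1.09 (95% interval -2.59 to 0.40) did not pass (limma adjusted p = 0.214, 0.116 to 0.449 over the alternatives). Without LPS library 3 it was -0.43. ELANE also stood apart in LPS library 3, at 3.34 FPKM, against 0.302 to 0.354 FPKM in the other LPS libraries and 0.145 to 0.363 FPKM with 3-HPA. The other genes of its granulocyte-precursor marker list did not. In that library MPO was at 0.0117 FPKM, and AZU1 and PRTN3 were at 0 FPKM. What set that library apart for IFI27 and ELANE was not tested.

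Related and neighbouring genes were next compared within each library, where library scaling largely cancels, as the log2 ratio of FPKM + 1 of one over the other. Of 8 pairs, 4 had ratios that did not overlap between the conditions. TRIM22 over TRIM5 averaged 3.30 ± 0.0787 with 3-HPA and 2.86 ± 0.0184 with LPS alone (SD, n = 4 each), a difference of 0.45 on the log2 scale. SP110 over SP100 averaged -0.23 ± 0.0676 with 3-HPA and 0.13 ± 0.0315 with LPS, a difference of -0.36. SAMD9L over SAMD9 averaged 0.10 ± 0.0236 with 3-HPA and -0.16 ± 0.0238 with LPS, a difference of 0.27, and MX1 over MX2 averaged 0.41 ± 0.0306 with 3-HPA and 0.17 ± 0.0116 with LPS, a difference of 0.24. In each pair the fitted fall was the larger for TRIM5, SP110, SAMD9 and MX2. For each of these 4 the exact two-sided permutation p was 0.0286, the smallest that 4 against 4 libraries allow. After Benjamini-Hochberg adjustment over the 8 pairs the exact permutation p was 0.0571, which does not pass. With only 4 of 8 pairs at the smallest p, no lower adjusted value was possible, so the adjusted test could not decide.

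The other 4 pairs had overlapping ratios. The differences were 0.03 for IFI44L over IFI44 and 0.03 for DDX60 over DDX60L (adjusted exact permutation p = 0.190 and 0.371), 0.06 for NMI over IFI35 (0.190) and -0.79 for IFI27 over IFI6 (0.371). For IFI44L over IFI44 the SD between libraries was 0.0355 with 3-HPA and 0.0265 with LPS, about the size of the difference. A p that misses the threshold does not show that the ratios were equal. SP140 lay under the filter, so its ratio to SP100 was not tested.

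**Figure D4:**
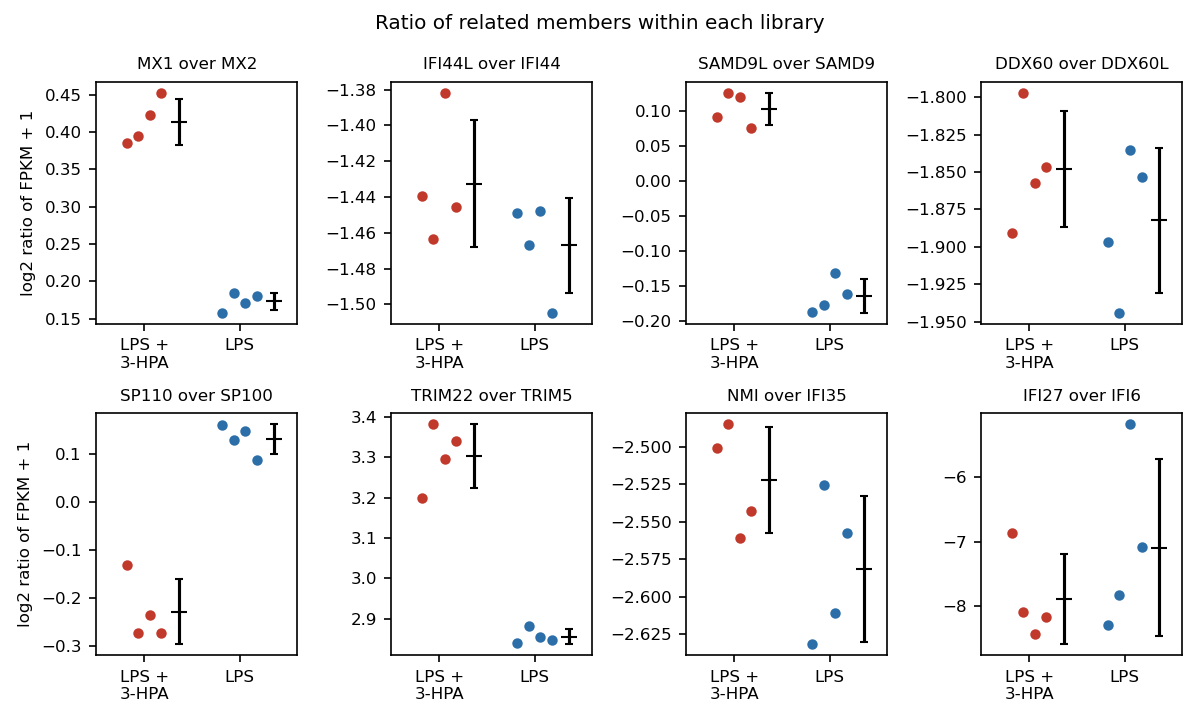
Log2 ratio of FPKM + 1 between related or neighbouring effector genes in each library, LPS + 3-HPA in red on the left and LPS in blue on the right, with mean ± SD of 4 libraries. The vertical axes differ between panels and do not start at 0. The colours separate for MX1 over MX2, SAMD9L over SAMD9, SP110 over SP100 and TRIM22 over TRIM5, and mix in the other 4 panels.

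Promoter sequence was then examined for what the genes share. RefSeq promoter windows (GRCh38.p14), running from 250 bases before to 50 bases after an annotated start, matched 32 of the 39 genes by symbol, with 41 windows since some genes have several starts. No window was given for HSH2D, MX2, PML, ZNFX1, PHF11, TRIM22 or SIGLEC1. Searched on both strands, the core letters of the interferon-stimulated response element (GAAA, any 2 bases, GAAA) occurred in 23 of the 41 windows (56.1%), against 3.57% of all 35116 windows. By gene, 19 of 32 held a match (59.4%), against 4.08% of the 8698 tested genes with a window. The letters of the gamma-activated site (GAS), TTCNNNGAA, occurred in 11 of the 41 windows (26.8%), against 7.66% of all windows, and the 2 motifs can overlap. A match is a run of letters and was not tested as a binding site.

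The response-element match nearest to the start is shown for each of the 19 genes with 10 bases on either side, since these letters are shared by many of the genes. The core is in capitals, each sequence reads 5′ to 3′ on the strand that spells this core, and the genes come in order of their log2 fold change, from -1.14 for TRIM5 to -0.06 for LAP3. IFI27, whose change did not pass, is second. MX1, EPSTI1, TRIM14, DDX60 and DDX60L have the same pair of C bases between the GAAA runs.
TRIM5: ctcagggcagGAAAGTGAAAgataaactat
IFI27: cggtttcctgGAAAATGAAAcctatctcat
SAMD9: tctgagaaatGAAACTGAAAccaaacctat
TRIM14: gctcccaaggGAAACCGAAAcctcggccgt
LGALS3BP: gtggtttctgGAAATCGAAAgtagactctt
MX1: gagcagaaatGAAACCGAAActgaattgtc
IFI44: tcagagaaagGAAACTGAAActcagtgtgc
IFI44L: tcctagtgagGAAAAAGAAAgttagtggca
SHFL: cccctgaatcGAAAGCGAAAcaggggccgg
EPSTI1: ctgattctgaGAAACCGAAActcagctgtt
PLSCR1: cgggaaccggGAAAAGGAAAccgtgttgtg
BST2: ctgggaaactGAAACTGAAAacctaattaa
NMI: aaaagacagtGAAAAAGAAAactgctttaa
LGALS9: acttaacaaaGAAATAGAAAccaaagcaac
DDX60L: gtggagaaaaGAAACCGAAActaactccct
DDX60: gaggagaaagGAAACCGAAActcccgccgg
IFI6: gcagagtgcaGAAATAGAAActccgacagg
TRIM21: cttctgagcgGAAACTGAAAgtgaaatagg
LAP3: caactcccggGAAATAGAAActgagtgcca

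Whole windows are shown for 3 genes that differ in these letters. BST2 (chr19:17405581-17405880, minus strand) held overlapping response-element cores from -130 to -115 relative to the start and GAS letters from -136 to -128 and from -58 to -50. IFI6 (chr1:27672143-27672442, minus strand) held 3 cores, from -156, -115 and -93. STAP1 (chr4:67558477-67558776, plus strand) held neither motif in this window. Capitals mark the matches to either motif.
BST2: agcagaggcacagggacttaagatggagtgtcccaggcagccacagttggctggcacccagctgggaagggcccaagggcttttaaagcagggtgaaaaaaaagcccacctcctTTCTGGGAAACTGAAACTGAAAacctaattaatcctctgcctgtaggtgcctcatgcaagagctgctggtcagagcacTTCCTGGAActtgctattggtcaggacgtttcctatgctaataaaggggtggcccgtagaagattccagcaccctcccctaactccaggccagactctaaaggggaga
IFI6: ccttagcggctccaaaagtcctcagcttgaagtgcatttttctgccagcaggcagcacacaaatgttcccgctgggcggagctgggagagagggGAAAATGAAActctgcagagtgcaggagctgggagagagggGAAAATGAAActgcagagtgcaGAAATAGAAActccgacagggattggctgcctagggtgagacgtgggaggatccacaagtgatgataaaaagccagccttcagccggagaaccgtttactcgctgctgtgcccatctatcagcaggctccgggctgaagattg
STAP1: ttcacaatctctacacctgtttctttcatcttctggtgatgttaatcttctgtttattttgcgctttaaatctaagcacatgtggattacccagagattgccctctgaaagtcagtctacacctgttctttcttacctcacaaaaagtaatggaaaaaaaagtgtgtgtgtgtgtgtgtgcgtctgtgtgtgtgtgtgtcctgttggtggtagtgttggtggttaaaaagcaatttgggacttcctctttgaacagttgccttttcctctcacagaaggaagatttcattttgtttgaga

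Falls were seen with and without these letters. Of the 19 tested genes with a response-element match, 18 fell, with a median log2 fold change of -0.48. Of the 12 with a window and no match, 11 fell and 1 rose, with a median of -0.57. Log2 fold changes ran from -1.14 to -0.06 with a match and from -1.47 to 0.19 without one. HSH2D and MX2, among the largest falls, had no window. Whether the letters bear on the size of the falls was not tested. The other tested genes of the series were not cleared of further interferon-stimulated genes, such as the groups set aside at the start. Among these other genes, 155 of 336 with the letters were lower (46.1%) and 2565 of 8331 without them (30.8%), with medians of -0.12 and -0.05. These are descriptions of letters in a fixed window and say nothing of elements elsewhere.

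**Figure D5:**
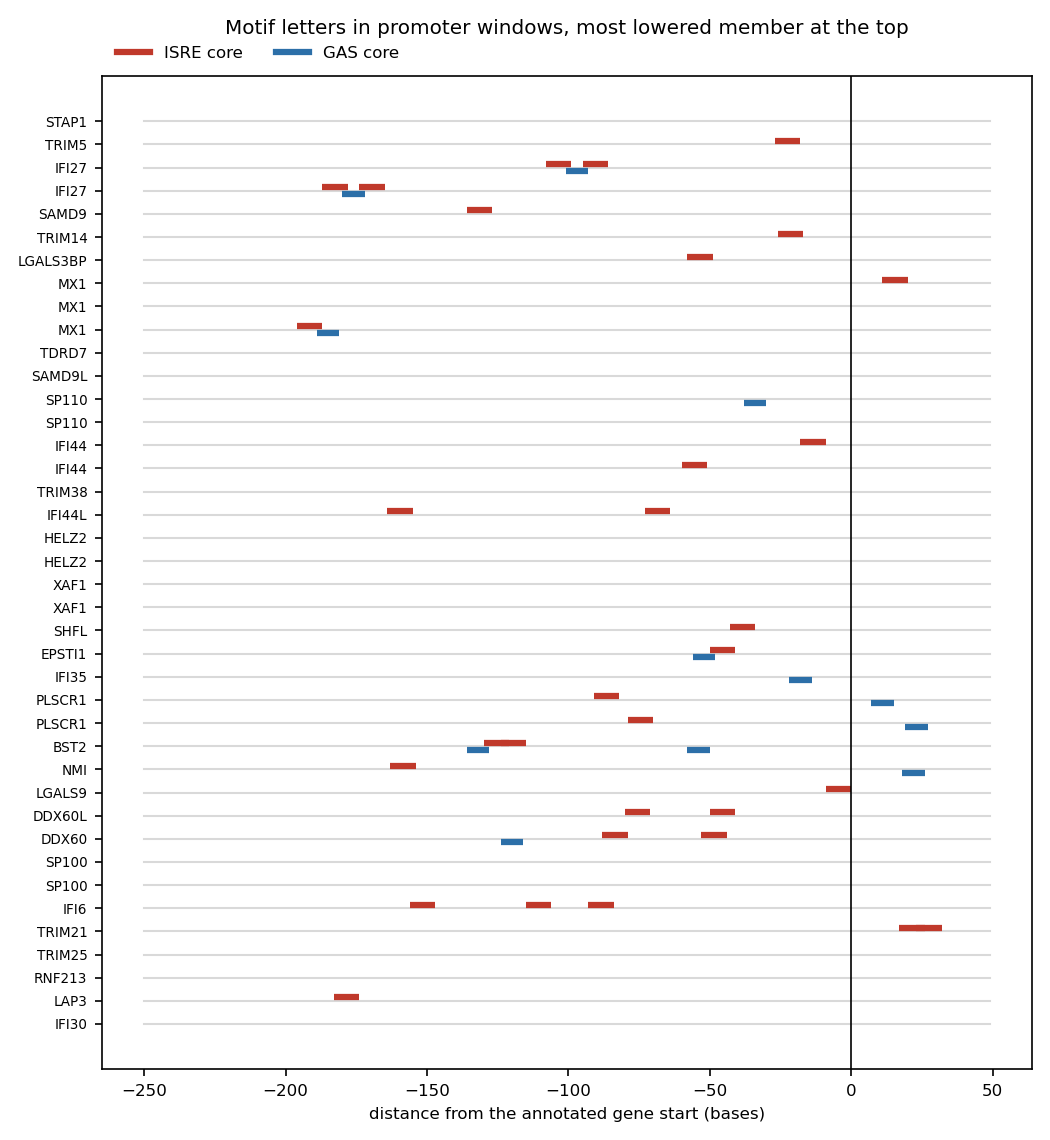
Position of response-element cores (red) and GAS cores (blue) relative to the annotated start, in bases, in each promoter window of the 31 tested effector genes that have one. Genes run from STAP1 at the top (log2 fold change -1.47) to IFI30 at the bottom (0.19), and a gene with several annotated starts has several lines. Red marks lie on 19 of the 31 genes, spread over the strongly and the weakly lowered ones.

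The pathway upstream of the effectors was then described. Of 30 listed genes for ligands, receptors, kinases, transcription factors and inhibitors, 21 were tested. Higher levels passed for 10, lower levels for 4, and 7 missed the threshold; the median log2 fold change was 0.10. The ligand genes IFNB1 (0 to 0.186 FPKM) and IFNL1 (0 to 0.206 FPKM) lay under the filter in both conditions and were not tested. The receptor genes IFNAR1, for interferon alpha and beta (0.17, limma adjusted p = 0.000748), and IFNGR1, for interferon gamma (0.19, limma adjusted p = 0.00101), rose slightly. Of the kinases JAK2, which serves the gamma receptor, averaged 32.0 ± 0.409 FPKM with 3-HPA and 42.4 ± 0.581 FPKM with LPS alone (-0.40, limma adjusted p = 2.36e-07), and JAK1 rose by 0.12.

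Of the transcription factors STAT2, which is activated below the interferon receptors, averaged 117.8 ± 0.769 FPKM with 3-HPA and 150.5 ± 1.35 FPKM with LPS alone (SD, n = 4 each; log2 fold change -0.35, limma adjusted p = 7.41e-08). IRF9, named here after its value was seen, was at 0.341 to 0.538 FPKM over all libraries and not tested. Exon overlap with other genes was examined for the effector genes only, so the low levels of IRF9 and CD68 are unchecked for it. IRF5, which acts in Toll-like receptor signalling, rose by 0.24. The inhibitor genes USP18 and SOCS3 moved in opposite directions. USP18, a brake on the interferon receptor that is itself interferon-stimulated, averaged 31.9 ± 1.47 FPKM with 3-HPA and 89.2 ± 1.52 FPKM with LPS (-1.46, limma adjusted p = 6.80e-09). SOCS3, which restrains JAK signalling by cytokine receptors, averaged 59.1 ± 2.04 FPKM with 3-HPA and 31.5 ± 0.180 FPKM with LPS (0.88, limma adjusted p = 1.99e-08).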

How the data were processed

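RNA-seq was deposited as 1 table of 30233 Ensembl genes by 8 libraries, 4 of LPS + 3-HPA and 4 of LPS, in FPKM (reads scaled to gene length and library total), per the labels. The submitters' processing notes name fastp 0.22.0, HISAT2 2.1.0, the genome GRCh38 and, without a version, featureCounts. The sources used here give no annotation release, strandedness or read length.

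A gene-name table gave symbols for 30221 identifiers, and GENCODE 29 gave positions. Whole reads were recovered from the FPKM by finding library totals and gene lengths that make every value whole within 0.01, for 28075 genes (92.9%) and all 39 effector genes. Read totals limit counting error only, and PCR duplicates are not covered.

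The comparison used limma 3.58.1 in R 4.3.3, on log2(FPKM + 1) with a mean-variance trend, in the 12499 genes at 0.5 FPKM or more in at least 4 libraries, with Benjamini-Hochberg adjustment over all of them, two-sided, at 0.05. Ratios of related genes were compared with an exact permutation test. The genes printed with every library's value were the 10 with the largest called change, any called in the other direction, any not passing, and both genes of each tested pair. Of the pathway list, up to 2 genes per role with the smallest p were named. The effector genes, lists and tests were chosen with earlier results of these data known. 1 gene of the pathway list is counted but not reported here by name. Protein identities were not computed. Alternatives covered pseudocounts of 0.1 and 0.5, filters, equal totals, TMM written from its definition, quantile normalisation, no trend, a replicate block, leaving out each library and, added after seeing the data, limma voom on the recovered reads. The limma and read-recovery steps were tested on simulated data. Python 3.11.15, numpy 2.4.6, pandas 2.3.3, scipy 1.17.1 and matplotlib 3.10.9 were also used.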

Additional observations from a re-analysis of the deposited data

Results flagged for a closer look

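Within the groups of 4 libraries, 5 of 78 sets of values held 1 library far from the others, its gap to the nearest being over Dixon's 95% critical share of the range; chance flags about 1 in 20. IFI27 was flagged in both conditions, at 9.69 FPKM in LPS + 3-HPA library 1 (the others 2.423 to 3.498 FPKM) and at 42.7 FPKM in LPS library 3 (the others 3.96 to 9.72 FPKM). SAMD9 was flagged for a low 66.2 FPKM in LPS + 3-HPA library 3, still under the LPS values of 128.7 to 141.2 FPKM. SP110 was flagged for 23.0 FPKM in LPS + 3-HPA library 1, where the others had 21.7 to 21.9 FPKM. SP140 was flagged for 0.475 FPKM in LPS library 3, where the others had 0.310 to 0.330 FPKM.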

How the results depend on the processing

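Of the 38 effector genes tested, 37 kept their direction and their side of the threshold under all 18 alternatives each. The exception was LAP3, at -0.06 (limma adjusted p = 0.0981) without a mean-variance trend, -0.05 (limma adjusted p = 0.0513) without LPS library 1 and 0.0042 (limma adjusted p = 0.873) after TMM scaling. Between 35 and 36 of the genes were lower and 1 higher throughout, with a median of -0.51 after TMM scaling and -0.61 with equal FPKM totals. Leaving out each library in turn gave 35 to 36 lower effector genes, 9 to 10 higher pathway genes and 3115 to 3218 lower genes in all. For IFI27 it gave -1.47 to -0.43 and for IFI27 over IFI6 -1.19 to -0.15, both nearest 0 without LPS library 3. With 4 against 3 libraries the exact permutation test of the ratios cannot go below p = 0.0286 before adjustment. The replicate numbers gave no sign of pairing. Deviations of same-numbered libraries correlated at -0.02 to 0.09, and those of differently numbered ones at -0.06 to 0.08. Such low correlations cannot exclude a paired design. With the replicate block 36 effector genes were lower and 1 higher, and of all genes 3220 were lower and 1854 higher. For the ratios such a block cannot go below an exact p of 0.125. SP140, at 40 to 102 reads a library, lay under the filter on low values and enters only the fit without it.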
